A study of Mus musculus with 4 samples.

Results

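miR-21a is a mouse microRNA (miRNA) hairpin whose 2 strands, miR-21a-5p and miR-21a-3p, were taken by name from small RNA sequencing of mouse aorta. They are 2 of the 1152 entries listed in each library. There were 4 libraries, 2 labelled CKD (chronic kidney disease) and 2 labelled Sham, all from the aortas of 12-week wild type C57BL/6 mice, each library a pool of 4 samples. The series is titled as a CKD model of vascular calcification: the poles of the left kidney were cut away, the whole right kidney followed 1 week later, and a 2% phosphate diet with 0.45% NaCl in the water was given for 4 weeks. The labels repeat that text word for word for Sham, which leaves the surgery and diet of Sham mice not given in the sources. The comparison asks how the level, the rank and the balance of the miR-21a strands differ between CKD and Sham aorta.

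A miRNA hairpin is cut into a short duplex, and one strand is loaded into an Argonaute protein while the other is mostly degraded. The loaded strand pairs through its seed, bases 2 to 8, with sites in messenger RNAs and represses them. miR-21a-5p is the usual loaded strand. It is known to repress Pdcd4 and Spry1 (brakes on growth signals), and it is known for its induction in injured arteries, in activated macrophages and in fibrosis of heart and kidney. miR-21a-3p, the partner strand, has been described as a signal from heart fibroblasts to muscle cells.

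The hairpin gene Mir21a lies on chromosome 11 from 86584067 to 86584158 on the minus strand of GRCm38, 92 bases long, inside exon 12 and the annotated UTR of Vmp1, a gene for a membrane protein of autophagy that is read from the same strand. The mature sequences below, from RefSeq (GRCm38.p6), are shown because the results turn on how unequally the strands were recovered and on whether reads could belong to a related miRNA. Capitals mark the seed.
miR-21a-5p: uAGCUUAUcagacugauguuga
miR-21a-3p: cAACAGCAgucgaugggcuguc
miR-21c: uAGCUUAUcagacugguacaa
miR-21b: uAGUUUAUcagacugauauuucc
miR-21a-5p occupies chr11:86584120-86584141 and miR-21a-3p occupies chr11:86584082-86584103. Among the 1679 mature names in the RefSeq table, miR-21c alone shares the seed AGCUUAU, and none shares the seed AACAGCA of the 3p strand. Against miR-21a-5p, with positions counted from 1 at the 5′ end, miR-21c carries A16G, G18A, U19C, U20A and G21A, and miR-21b carries C4U, G18A, G21U and A22C. C4U lies in the seed. Neither relative was more than a trace: miR-21c had 2 and 1 reads in CKD and 1 and 2 reads in Sham, and miR-21b had 2 and 1 reads in CKD and 0 and 2 reads in Sham. The protocol takes RNA of 18 to 30 bases from a first gel and names 22 to 30 bases for the final library band, where both miR-21a strands have 22 bases and miR-21c has 21. Whether the final band affected miR-21c was not tested. The counting of reads that match several miRNAs is not described in the labels, but adding both relatives to miR-21a-5p left its deposited log2 difference at 2.22.

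Each library held between 16658810 and 17532748 reads over the listed entries, recovered from deposited CPM values (read counts scaled to a total of 1000000 per library), so 1 read was worth between 0.0570 and 0.0600 CPM. One entry dominated: miR-143-3p, a smooth muscle miRNA, held 41.1% and 40.8% of reads in CKD and 79.8% and 72.5% in Sham. Every library sums to a fixed total, so a smaller share of 1 entry leaves more for all others, and the median log2 difference was 1.34 over the 479 tested entries, those averaging 1 CPM or more. Differences are therefore given on the deposited scale and again after trimmed-mean (TMM) scaling, which sets the shift shared by most entries to about 0. Libraries of a group differed by more than counting noise, with a chi-square per degree of freedom of 499 in CKD and 579 in Sham, and p-values here reflect the spread of pooled libraries alone, which may be partly technical.

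miR-21a-5p was an abundant aortic miRNA and its deposited level was several-fold higher in CKD. It had 13977 and 18127 CPM in the CKD libraries, against 2875 and 4084 CPM in the Sham libraries. The groups did not overlap, and the lower CKD library exceeded the higher Sham library 3.42-fold. The mean level was 16052 ± 2935 CPM in CKD and 3480 ± 855 CPM in Sham (SD, n = 2 each), a ratio of 4.61. Libraries of the same group differed by 1.30-fold in CKD and 1.42-fold in Sham. In bulk tissue a change in the number of cells that make a miRNA and a change in its amount per cell cannot be told apart.

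On log2(CPM + 1), miR-21a-5p rose by 2.22 in CKD (SE 0.31, 95% interval 1.53 to 2.90, limma adjusted p = 6.0e-04). That call was shared by 82.9% of the tested entries, and both CKD libraries lay above both Sham libraries for 91.2% of them, so the direction alone sets miR-21a-5p apart from few others. Its size stood higher: 456 of the 479 tested entries had a smaller difference and 22 had a larger one. Without any single library the difference was 1.96 to 2.47, in fits where 1 library stands alone and is assumed to vary like the other group.

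miR-21a-5p also moved up in order. It ranked 13 and 9 of all listed entries in the CKD libraries, and 20 and 20 in the Sham libraries. As a share of the reads left after miR-143-3p is set aside, it held 2.37% and 3.06% in CKD and 1.42% and 1.49% in Sham, a ratio of means of 1.87. The groups did not overlap on this scale, as for 45% of the other tested entries with both CKD libraries above both Sham libraries.

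Ratios to other miRNAs within a library need no scaling. For every 1000 reads of miR-143-3p there were 34.0 and 44.4 reads of miR-21a-5p in CKD, and 3.60 and 5.63 in Sham, an 8.49-fold difference of means. For every 1000 reads of miR-145a-5p, which comes from the same smooth muscle cluster as miR-143-3p, there were 206 and 239 reads of miR-21a-5p in CKD and 86.0 and 86.5 in Sham, a 2.58-fold difference. Both reference miRNAs were themselves called lower relative to the shift shared by most entries. miR-143-3p lay at -2.48 (limma adjusted p = 0.012) and miR-145a-5p at -0.73 (limma adjusted p = 0.044), so the ratios also carry the change of the reference. With 2 libraries against 2, an exact two-sided permutation test cannot go below p = 0.333, so these ratios are given as values.

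Relative to the shared shift, miR-21a-5p lay above 0 without passing the threshold. The TMM-scaled level was 7727 and 10919 CPM in CKD and 6007 and 5870 CPM in Sham, so the groups did not overlap but the lower CKD library came close to Sham. The log2 difference was 0.63 (SE 0.19, 95% interval 0.11 to 1.15, limma adjusted p = 0.13), a 1.55-fold level, and larger than in 422 of the 479 entries. On this scale 1.88% of entries were called higher, and 28% had both CKD libraries above both Sham libraries. The call depended on the method: it passed with library totals counted without miR-143-3p (0.89, limma adjusted p = 0.038) and with DESeq2 on the recovered reads (0.68, adjusted p = 0.0069), and missed with edgeR on the same reads (0.65, adjusted p = 0.14). Without CKD 2, the library with the higher level, the difference was 0.38 (limma adjusted p = 0.19), and without CKD 1 it was 0.88 (limma adjusted p = 0.16).

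**Figure D1:**
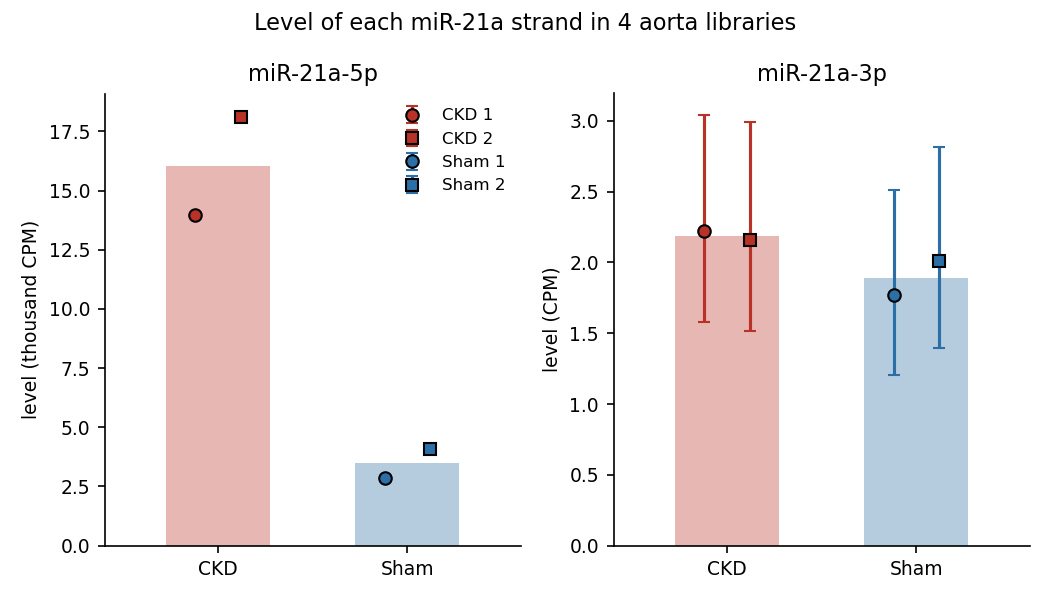
Level of each strand in CPM (bars: mean of 2 libraries; circles: library 1, squares: library 2; error bars: exact Poisson 95% intervals, which cover counting error only and are smaller than the symbols for miR-21a-5p). The CKD libraries sit at 13977 and 18127 CPM against 2875 and 4084 CPM in Sham for the 5p strand, while all 4 libraries lie between 1.77 and 2.22 CPM for the 3p strand; the panels have different scales.

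miR-21a-3p was rare and nearly level across the libraries. It had 39 and 36 reads in CKD and 31 and 34 reads in Sham, which are 2.22 and 2.16 CPM in CKD and 1.77 and 2.01 CPM in Sham. The exact Poisson 95% intervals ran from 1.51 to 3.04 CPM over the CKD libraries and from 1.20 to 2.81 CPM over the Sham libraries, so all of them overlapped, and they cover counting error only. The mean level was 2.19 ± 0.0424 CPM in CKD and 1.89 ± 0.170 CPM in Sham (SD, n = 2 each), a ratio of 1.16. It ranked 430 and 424 in CKD, where 963 and 940 entries had reads, against 325 and 352 in Sham, where 730 and 795 had.

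The deposited log2(CPM + 1) difference of miR-21a-3p was 0.14 (SE 0.30, 95% interval -0.51 to 0.80, limma adjusted p = 0.66). That is where most miRNAs were called higher, and only 17 of the 479 tested entries had a smaller difference. Among the 141 entries at a similar level, with a mean of 1 to 4 CPM, the median difference was 0.98, 66.7% were called higher and 8 lay below miR-21a-3p. Low entries are understated on this scale, since 1 CPM is added to each value.

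Relative to the shared shift, miR-21a-3p lay below 0. The TMM-scaled level was 1.23 and 1.30 CPM in CKD and 3.70 and 2.89 CPM in Sham, with no overlap, and 31.5% of entries had both CKD libraries below both Sham libraries. The log2 difference was -0.92 (SE 0.19, 95% interval -1.43 to -0.40, limma adjusted p = 0.068), which missed the threshold, where 5.85% of entries were called lower. The size depends on the added value: it was -0.24 with 10 CPM added and -1.30 with 0.1 CPM added (limma adjusted p = 0.074 and 0.056). edgeR on the recovered reads gave -1.37 (adjusted p = 0.096). The strands thus lay on opposite sides of the shared shift, and neither passed alone.

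**Figure D2:**
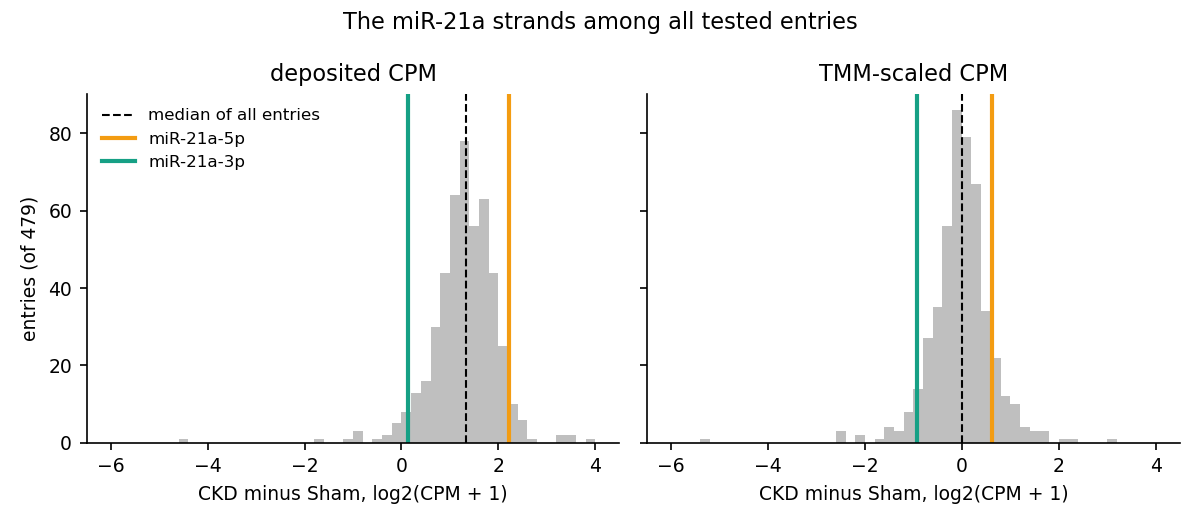
Histograms of the CKD minus Sham difference in log2(CPM + 1) for the 479 tested entries, on deposited CPM (left) and TMM-scaled CPM (right), with the median of all entries dashed. miR-21a-5p lies right of the median on both scales (2.22 and 0.63), and miR-21a-3p left of it (0.14 and -0.92).

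The balance between the strands shifted further toward the 5p strand in CKD. The plain ratio of reads is taken within a library and needs no scaling. There were 6283 and 8388 reads of miR-21a-5p for each read of miR-21a-3p in CKD, against 1625 and 2027 in Sham. Both CKD libraries lay above both Sham libraries, as for 34.6% of the 130 tested hairpins, counted with 1 CPM added to each strand. The mean was 7336 ± 1488 in CKD and 1826 ± 285 in Sham (SD, n = 2 each). Put as a share, the 3p strand made up 0.0159% (Wilson 95% interval 0.0116% to 0.0218%) and 0.0119% (0.00861% to 0.0165%) of miR-21a reads in CKD. In Sham it made up 0.0615% (0.0433% to 0.0873%) and 0.0493% (0.0353% to 0.0689%). The intervals of the CKD libraries lay below those of the Sham libraries, and they cover counting error only.

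The ratio was tested across the 130 hairpins whose strands both averaged 1 CPM or more, of 327 with both strands listed. For miR-21a the difference in log2 ratio was 2.07 (SE 0.24, 95% interval 1.47 to 2.67, limma adjusted p = 0.0088), a 4.20-fold change, against a median absolute difference of 0.45 over all hairpins. The test adds 1 CPM to each strand, which matters for a strand near 2 CPM: with TMM-scaled CPM, an alternative chosen after seeing the data, the difference was 1.55 (limma adjusted p = 0.022), and the plain ratio gave 2.00. Calls of a changed balance were not rare: 28.5% of hairpins were called, 22 toward 5p and 15 toward 3p. Of the called hairpins, 28 moved toward the commoner strand and 9 toward the rarer one. Where both strands rise by the same fold, adding 1 CPM itself moves the ratio toward the commoner strand. The number called depends on the added value, with 16 hairpins (13 toward 5p and 3 toward 3p) at 0.1 CPM and 84 at 10 CPM. Without any single library the difference for miR-21a was 1.87 to 2.27, again with 1 library in an arm. It could not be tested with both strands at 10 CPM or more, which miR-21a-3p does not reach.

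In size, only miR-486a (2.38) and miR-299b (-3.82) had larger differences of balance than miR-21a, both chosen here after their values were seen and neither past the threshold (limma adjusted p = 0.15 and 0.12). Each strand of miR-299b rests on 1 library, with 11.55 CPM of 5p in Sham 2, 16.71 CPM of 3p in CKD 1 and at most 0.17 CPM elsewhere. miR-486a-5p had 445 and 3266 CPM in CKD, and its values equal those of miR-486b-5p. Among called hairpins, miR-21a had the largest difference. After it came miR-143 (1.67), whose 3p strand dominates, miR-185 (1.61), miR-423 (1.56) and miR-34c (1.40), a p53 target, all moving toward 5p. Toward 3p the largest were miR-199b (-1.62), miR-223 (-1.06), miR-485 (-1.05), miR-511 (-0.96) and miR-145a (-0.96), where limma adjusted p lay between 0.0048 and 0.034. The 3p entries of miR-199b and miR-199a hold equal values, so the ratio of miR-199b is uncertain. The added 1 CPM enlarges some of these differences, since the rise of a strand near 1 CPM is understated. For miR-34c and miR-223 it makes up most of the difference listed. miR-34c-3p had 2.79 and 2.70 CPM in CKD and 0.68 and 0.59 CPM in Sham. For miR-223-5p the values were 3.94 and 3.60 CPM in CKD and 0.80 and 1.13 CPM in Sham. Plain ratios of these hairpins were not tested. miR-185 resembled miR-21a in how its strands moved: miR-185-5p had 385 and 328 CPM in CKD and 99.6 and 146 CPM in Sham, while miR-185-3p had 1.14 and 0.90 CPM in CKD and 0.97 and 1.24 CPM in Sham. Over the 75 hairpins whose rarer strand averaged 1 to 10 CPM, the deposited median difference was 1.18 for the rarer and 1.55 for the commoner strand, and 4 rarer strands lay below miR-21a-3p.

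With 1 CPM added to each strand, miR-21a was also the most one-sided of the 130 hairpins, with a mean log2 ratio of 11.25. The median over hairpins, regardless of direction, was 3.12. Next came let-7g (10.91), a repressor of proliferation, then miR-99a (10.65) and miR-100 (10.51). Hairpins with a strand averaging below 1 CPM, or without both strands listed under paired names, were not ranked, and some may be more one-sided. On this ratio none of the 130 was higher toward 5p in CKD, and let-7g alone was in Sham, at 10.66 against 10.21 for miR-21a. Without the added 1 CPM, miR-100 also exceeded miR-21a in both Sham libraries. There miR-100-5p had 1737 and 2483 CPM and miR-100-3p had 0.51 and 1.13 CPM. Of these neighbours miR-99a also shifted toward 5p (1.10, limma adjusted p = 0.016), while let-7g lay at 0.51 and miR-100 at 0.66 (limma adjusted p = 0.37 and 0.064). The added 1 CPM enlarges the shifts of let-7g and miR-100, whose 3p strands lie near 1 CPM in Sham. miR-100-3p had 2.00 and 1.68 CPM in CKD, and let-7g-3p had 5.08 and 2.28 CPM in CKD and 0.97 and 2.01 CPM in Sham. Their plain ratios were not tested. In the sequences printed above, miR-21a-5p opens with U and miR-21a-3p with C. Over the 106 hairpins with both sequences in the RefSeq table, the commoner strand began with U in 50.9% and the rarer in 22.6%, given as a description.

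**Figure D3:**
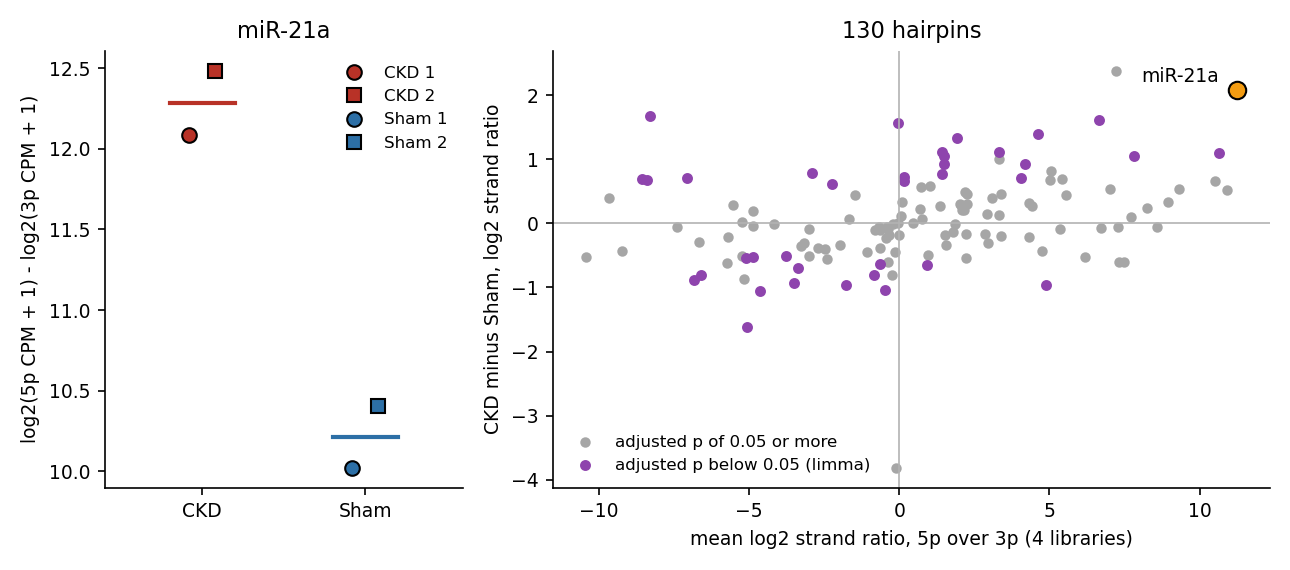
Left, the log2 ratio of miR-21a-5p to miR-21a-3p (1 CPM added to each) in every library, with the group mean as a line; the CKD libraries lie at 12.08 and 12.49, against 10.02 and 10.41 in Sham. Right, the CKD minus Sham difference of that ratio against its mean for 130 hairpins, purple where the limma adjusted p is below 0.05; miR-21a (orange) lies farthest right and at 2.07.

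Next to miR-21a-5p in abundance stood other well-known vascular miRNAs, though adaptor ligation captures some sequences better than others, so levels of different miRNAs compare only roughly. By mean level, miR-21a-5p took place 12 in CKD and place 20 in Sham. In CKD it followed miR-29a-3p (18379 ± 3371 CPM), a repressor of collagens, and miR-24-3p (16445 ± 2243 CPM), and preceded let-7c-5p (15952 ± 2795 CPM) and let-7f-5p (15540 ± 2836 CPM; SD, n = 2 each). In Sham it followed miR-29a-3p (3758 ± 746 CPM) and let-7i-5p (3614 ± 766 CPM), and preceded miR-30c-5p (3246 ± 996 CPM) and let-7b-5p (3211 ± 514 CPM; SD, n = 2 each). These neighbours differed from miR-21a-5p by less than 1 SD in either group. miR-21a-3p stood among entries near 2 CPM. Its neighbours by mean in CKD were miR-598-3p, miR-664-5p, Novel_58 and miR-1943-5p, and in Sham they were miR-540-3p, miR-668-3p, miR-132-5p and miR-96-5p, with means from 1.85 to 2.35 CPM.

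Patterns over the 4 libraries were compared with that of miR-21a-5p on deposited CPM, where most entries share a rise in CKD. Likeness was measured as the Euclidean distance between log2(CPM + 1) profiles centred on their own mean, over the 264 entries averaging 10 CPM or more. miR-223-3p, a myeloid miRNA, was nearest (0.17), with 147 and 195 CPM in CKD and 25.6 and 41.2 CPM in Sham. Then came miR-511-3p (0.18), from an intron of the macrophage receptor gene Mrc1, and miR-146b-5p (0.20), which is induced in inflammation. miR-106b-3p and miR-204-5p, a repressor of the bone factor Runx2, followed at 0.22 each. The median distance was 0.85. All 5 were highest in CKD 2 and lowest in Sham 1, as miR-21a-5p was, and with 4 libraries likeness is a description only. Relative to the shared shift none of the 5 was called, with miR-223-3p at 0.78 and miR-511-3p at 0.77 (limma adjusted p = 0.11 and 0.14).

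**Figure D4:**
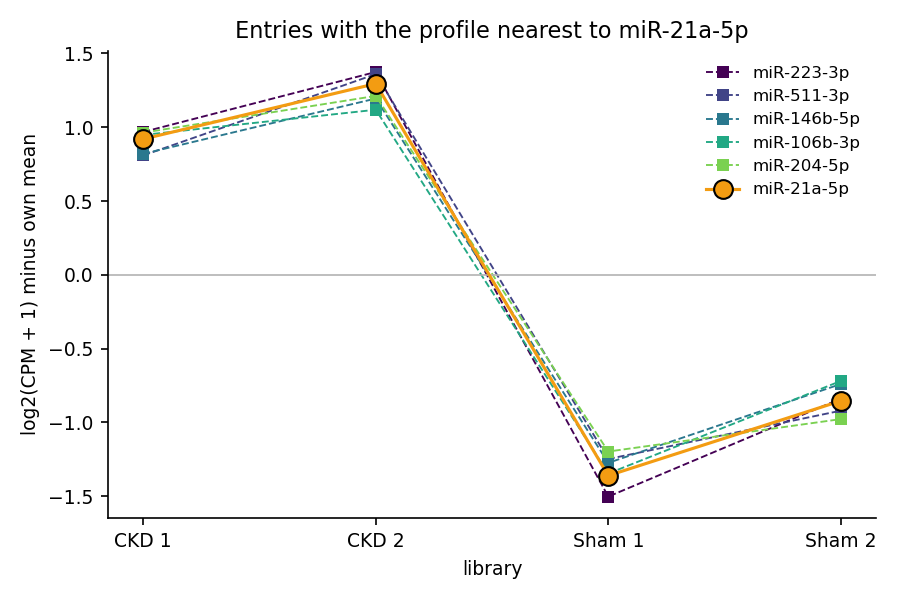
Level of miR-21a-5p and of the 5 entries with the nearest profile in each library, as log2(CPM + 1) minus the entry's own mean over the 4 libraries; lines only join the points of 1 entry. The CKD libraries lie between 0.81 and 1.37 and the Sham libraries between -1.50 and -0.72.

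Leukocytes are also rich in miR-21a-5p. The summed level of 6 leukocyte miRNAs was 857 and 1026 CPM in CKD and 233 and 459 CPM in Sham, and 5 of the 6 were called higher on the deposited scale, a share like the 82.9% of all entries. Relative to the shared shift none was called and their median was -0.14, with miR-223-3p at 0.78 and miR-142a-3p, made across blood lineages, at -1.18. Their part in the miR-21a-5p result was not tested. Red cell miRNAs summed to 1035 and 4804 CPM in CKD and 219 and 841 CPM in Sham, and endothelial miR-126a strands to 9989 and 9767 CPM in CKD and 2899 and 3411 CPM in Sham. All 4 red cell and 2 endothelial entries were called higher on the deposited scale, where 82.9% of all entries were. Relative to the shared shift none of them was called, with a median of 0.33 for the red cell and 0.08 for the endothelial entries. The smooth muscle markers were abundant in every library, at 485612 and 488708 CPM in CKD and 833695 and 774989 CPM in Sham. miR-143-3p makes up most of that sum. The other members had positive deposited differences, with miR-145a-5p (0.85) and miR-145a-3p (1.81) called higher and miR-143-5p at 0.77 (limma adjusted p = 0.063). Across all tested entries the deposited median was 1.34, and 82.9% were called higher. Once TMM-scaled, the 4 markers had a median of -0.77, and 2 of them were called lower. These were miR-145a-5p (-0.73, limma adjusted p = 0.044) and miR-143-3p (-2.48, limma adjusted p = 0.012). The 2 remaining markers, miR-143-5p (-0.81) and miR-145a-3p (0.22), did not pass. Striated muscle markers summed to between 509 and 1204 CPM, nearly all miR-133a-3p, with miR-206-3p, miR-208a-3p and miR-208b-3p below a mean of 1 CPM.

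Among 15 fibrosis-linked miRNAs all 15 were called higher on the deposited scale, where 82.9% of all entries were, with a median of 1.85 against 1.34 over all tested. Relative to the shared shift the median was 0.30 and 11 lay above 0. miR-29b-3p, a repressor of collagens, rose (0.95, limma adjusted p = 0.038), and miR-101a-3p fell (-0.73, limma adjusted p = 0.043). The others did not pass, among them miR-212-3p, the highest of the list (1.04, limma adjusted p = 0.051), and miR-133a-3p at -0.64. miR-21a-5p at 0.63 stood between miR-214-3p (0.66) and miR-192-5p (0.59). Of the list's most abundant members, miR-29a-3p lay at 0.71 (limma adjusted p = 0.053), miR-199a-3p at 0.30 and miR-199a-5p at 0.12.

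Among 10 miRNAs described in injured or proliferating arterial smooth muscle all 10 were called higher on deposited CPM (82.9% of all entries), and their median was 1.76. After TMM scaling it was 0.17 and 8 lay above 0. miR-221-3p, which represses the cell cycle inhibitor p27, rose (0.76, limma adjusted p = 0.039), and miR-21a-5p came next to it. miR-132-3p lay at 0.36, miR-222-3p, from the same cluster as miR-221-3p, at 0.28, and the abundant miR-24-3p and miR-26a-5p at 0.25 and -0.09, none of them past the threshold. miR-146a-5p, an inflammation-induced miRNA, lay lowest at -0.20.

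**Figure D5:**
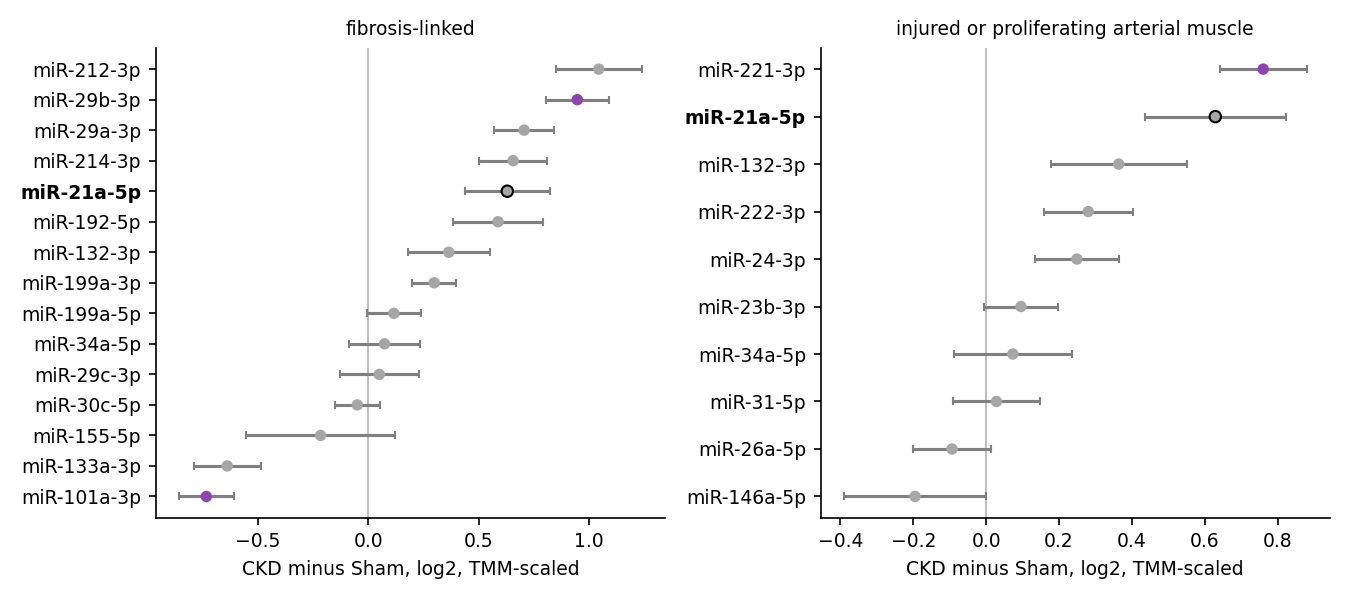
CKD minus Sham difference in log2(CPM + 1) after TMM scaling (points; bars: SE) for 15 fibrosis-linked miRNAs (left) and 10 of injured or proliferating arterial smooth muscle (right), purple where the limma adjusted p is below 0.05. miR-21a-5p (bold) lies at 0.63 in both panels, above most members, and is not called.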

How the data were processed

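Trizol RNA of 4 aorta samples went into each library pool, per the labels' protocols. Small RNA was size-selected on a gel, ligated to a 3′ and then a 5′ adaptor and amplified by RT-PCR, and no molecular identifiers are described. The submitters' processing notes list Bowtie, without a version, and GRCm38. The values were deposited as CPM, read as such because they sum to about 1000000 in each library. Of the deposited files, 3 stack all names over all values (unit other), and these were paired by order. All files list the same names in the same order.

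Read totals were recovered from the step that 1 read is worth: 100% of values came out whole within 0.005 CPM. limma 3.58.1 with a mean-variance trend was fitted on log2(CPM + 1) over 479 entries averaging 1 CPM or more, and on strand ratios over 130 hairpins, two-sided, with Benjamini-Hochberg adjustment over all entries or hairpins and a threshold of 0.05. TMM factors came from the recovered reads. edgeR 4.0.16 (quasi-likelihood, 31 entries called) and DESeq2 1.42.0 were alternatives. The plan foresaw the edgeR test had raw counts been deposited. Fits were also run on simulated counts with equal numbers of raised and lowered entries. That setting has no shared shift like the one seen here, so it cannot show how the fits handle it.

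The strands and lists were chosen with earlier results of these data known. Named were both strands, seed sharers, 2 neighbours on each side in level within each group, 5 nearest profiles, 3 hairpins on each side in strand ratio (none lies above miR-21a), up to 5 called hairpins per direction, and, of each list, called and the 3 most abundant members. RefSeq sequences matched 900 of 1079 named entries. Of the listed entries, 73 are numbered Novel_ names.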

Additional observations from a re-analysis of the deposited data

How the results depend on the processing

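The direction of every miR-21a difference was the same under every alternative for which a value was recorded. The deposited call of miR-21a-5p and the strand ratio call kept their side of the threshold in every limma fit, though fits without 1 library assume that the lone library varies like the other group, while the exact permutation test of the plain ratio (2.00, p = 0.333) cannot pass with 4 libraries. Relative to the shared shift, miR-21a-5p passed with totals without miR-143-3p (0.89) and with DESeq2 (0.68, where miR-21a-3p had no adjusted p). miR-21a-3p did not pass in any fit, and it drops out at a mean CPM of at least 10. Counts of calls moved more. On the deposited scale there were 241 of 265 entries at a mean CPM of at least 10, and 143 to 392 without 1 library, with 143 without CKD 1 and 241 without CKD 2, against 402. With TMM scaling there were 37, against 21 with no filter, 10 with the replicate block, 77 with DESeq2 and 5 to 13 without 1 library. For the strand ratio there were 37 hairpins, against 16 and 84 with pseudocounts of 0.1 and 10, 22 of 55 with both strands at 10 CPM or more, 64 of 327 with no filter, 22 with TMM-scaled CPM (chosen after seeing the data), 63 with the replicate block and 15 to 30 without 1 library. The cause was not tested where the number of entries or libraries did not change. The replicate numbers share only a label: deviations of same-numbered libraries correlated at 0.10 (deposited) and 0.12 (TMM) across entries. The block gave the same differences (2.22, 0.63 and 2.07) and changed no call of either strand or their ratio, on 1 residual degree of freedom. Depth limits miR-21a-3p, which rests on 31 to 39 reads a library.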
